A study of Homo sapiens with 10 samples.

Results

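Common SALL4 regions inside protein-coding genes are stretches of chromatin that carried SALL4 peaks in all 3 CUT&RUN libraries of SNU398 cells. Their midpoint lies in the interior of a gene. SNU398 is an established human hepatocellular carcinoma line. A region of the deposited common list was taken when its midpoint fell inside the span of a protein-coding RefSeq gene and more than 1000 bp from every end of such a gene. Of 11201 common regions, 4615 met this rule (41.2%, 95% Wilson interval 40.3 to 42.1), while 757 lay at a gene end, 5641 lay outside genes and 188 were on sequences without placed genes. CUT&RUN, in which an antibody tethers a nuclease that releases the bound chromatin, was run with an antibody against SALL4 in 3 libraries. The 3 rabbit IgG libraries were not analysed here, so no background from the control antibody stands beside the peaks. RNA-seq of total RNA followed 72 hours after transduction with a scrambled shRNA in 2 libraries or with 1 hairpin against SALL4 in 2 others, all in the same line, so 1 hairpin and 1 line stand for the knockdown. Whether libraries stem from different cultures is not in the labels, and p-values here rest on the spread between libraries, which may be technical.

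SALL4, a transcription factor with several zinc fingers, is active in embryonic stem cells and in the fetal liver, is silent in adult hepatocytes and is expressed again in a share of liver cancers. A cluster of its zinc fingers binds AT-rich DNA, and its N-terminal stretch recruits the NuRD complex, a histone deacetylase and chromatin remodeller. Binding inside a gene can fall on an alternative start, on an intronic enhancer or on DNA with no known role, and binding alone does not tell these apart. The hepatocyte identity of the line was slight at the RNA level: 2 of 13 hepatocyte markers reached 1 CPM (counts scaled to library size) in the scramble libraries, with ALB at a mean of 0.557 CPM. Of the hepatic oncofetal markers, 4 of 6 reached that level, among them GPC3 and LIN28B, whereas AFP did not. No endothelial marker of 5, 1 leukocyte marker of 6, 2 neural markers of 4 and 5 fibroblast markers of 6 reached it. The fibroblast markers summed to 783.3 to 978.4 CPM over the 4 libraries, nearly all from COL3A1, which is itself a host of regions described here, and CD3E was at 0 in all 4 libraries.

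The annotated elements placed on these regions were gene starts and microRNAs, and sequences of some are given first because the study's title speaks of an AT-rich motif. Exons and enhancers were not examined. RefSeq places 271 start windows (GRCh38.p14, 250 bases before to 50 after a transcription start) in 189 of the 4615 regions. Of these, 185 are starts of the host gene itself, 76 are starts of long noncoding RNAs (lncRNAs) and 10 belong to other genes. No library had a peak over 96 of the windows, 1 library had one over 122, 2 libraries over 47 and all 3 libraries over 6. The 6 windows with peaks in all 3 libraries and 1 KDM3A window, chosen once the peaks over them were known, follow, as the 250 bases before the start on the gene's strand. Capitals mark ATATT or its reverse complement AATAT, which overlap where AATATT is read and are then counted as 2 matches.

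RIMS1, chr6:72212643-72212892, plus strand: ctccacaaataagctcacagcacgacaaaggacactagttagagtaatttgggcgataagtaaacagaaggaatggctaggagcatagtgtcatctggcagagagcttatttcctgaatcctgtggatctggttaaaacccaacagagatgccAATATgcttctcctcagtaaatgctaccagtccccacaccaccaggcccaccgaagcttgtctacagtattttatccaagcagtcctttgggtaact
TTC23, chr15:99249582-99249831, minus strand: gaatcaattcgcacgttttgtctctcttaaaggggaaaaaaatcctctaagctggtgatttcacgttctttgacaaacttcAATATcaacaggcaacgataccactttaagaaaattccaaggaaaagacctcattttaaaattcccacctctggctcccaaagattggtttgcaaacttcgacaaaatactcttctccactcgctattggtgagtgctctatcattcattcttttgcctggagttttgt
C11orf65, chr11:108467530-108467779, minus strand: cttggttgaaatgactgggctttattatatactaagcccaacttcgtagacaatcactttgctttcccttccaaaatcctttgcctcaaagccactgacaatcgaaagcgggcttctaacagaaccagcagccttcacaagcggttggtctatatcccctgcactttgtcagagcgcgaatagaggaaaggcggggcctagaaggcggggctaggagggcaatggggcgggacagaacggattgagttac
TXNRD1, chr12:104286782-104287031, plus strand: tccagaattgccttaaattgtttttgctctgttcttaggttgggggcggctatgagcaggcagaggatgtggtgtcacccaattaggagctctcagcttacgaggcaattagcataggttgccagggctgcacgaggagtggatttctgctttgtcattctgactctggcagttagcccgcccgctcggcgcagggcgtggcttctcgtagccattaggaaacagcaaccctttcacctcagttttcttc
LOC124902884, chr12:14367191-14367440, minus strand: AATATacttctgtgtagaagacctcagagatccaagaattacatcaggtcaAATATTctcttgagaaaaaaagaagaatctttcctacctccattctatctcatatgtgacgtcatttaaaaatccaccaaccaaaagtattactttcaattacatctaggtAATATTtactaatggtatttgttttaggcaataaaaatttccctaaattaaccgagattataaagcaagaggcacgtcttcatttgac
LOC105370519, chr14:57490785-57491034, plus strand: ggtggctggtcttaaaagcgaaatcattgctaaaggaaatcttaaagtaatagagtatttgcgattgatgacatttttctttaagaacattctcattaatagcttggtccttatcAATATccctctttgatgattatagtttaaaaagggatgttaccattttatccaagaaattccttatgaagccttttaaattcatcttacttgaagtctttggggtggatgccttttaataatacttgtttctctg
KDM3A, chr2:86441121-86441370, plus strand: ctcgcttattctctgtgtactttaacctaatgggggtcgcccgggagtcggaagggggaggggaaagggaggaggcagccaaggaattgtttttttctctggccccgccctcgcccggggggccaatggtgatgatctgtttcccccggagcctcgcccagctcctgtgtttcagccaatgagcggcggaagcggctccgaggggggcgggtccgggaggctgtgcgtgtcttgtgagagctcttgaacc

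The windows differed in composition. The start of LOC124902884, a lncRNA inside ATF7IP, held 5 matches to the pentamer in 250 bases that were 68.4% A+T. Its full window of 300 bases lay under 2, 3 and 1 peaks of libraries 1, 2 and 3. For all windows shown, peaks were counted over 300 bases, of which the last 50 are not printed. LOC105370519, a lncRNA inside CCDC198, was 68.0% A+T with 1 match. The internal starts of RIMS1, which encodes a scaffold of the presynaptic active zone, and of TTC23 held 1 match each at 54.4% and 61.2% A+T. TXNRD1, encoding cytosolic thioredoxin reductase, and C11orf65 held none at 47.6% and 49.6%. The KDM3A start, under a peak of library 1 of 7 steps (a step is the smallest unit of peak height in a library) and under none of the other libraries, was 37.6% A+T without a match. KDM3A encodes a demethylase of lysine 9 of histone H3.

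Over all 271 windows, here at their full 300 bases, the median A+T share was 41.0%, against 41.3% over the 35116 RefSeq start windows of the genome. The pentamer on either strand was present in 25.5% of them and in 23.01% of all windows of the same length. The intragenic values lay between those of the other common regions. Start windows in gene end regions had a median A+T share of 38%, with the pentamer in 13.9%. Those in regions outside genes had 49.3% and 39.0%. The pooled intragenic values hide opposite differences by type of gene. The pentamer was in 49 of 185 host gene starts (26.5%), against 17.1% of all protein-coding starts. It was in 19 of 76 lncRNA starts, a smaller share than the 33.2% of all lncRNA starts. Median A+T was 41.0% in host gene starts, against 37.7% in all protein-coding starts. In lncRNA starts it was 45.3%, below that of all lncRNA starts. The rule keeps region midpoints over 1000 bp from gene ends, while all protein-coding starts include those at gene ends. The comparison of host gene starts therefore sets unlike kinds of start side by side. The 185 host gene starts belong to 141 genes, and windows of the same gene can overlap. None of these differences was tested. The 271 start windows hold a small part of the regions. The sequence of the other regions was not read, because no genome of the files' build was used here. A pentamer match is a description of the letters and not of a bound site.

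MicroRNA genes lay in the regions in 14 cases, and 6 of these were under a peak of at least 1 library. Of these 6, 3 were in a single region inside DNM3, which encodes a dynamin of membrane fission. This region, chr1:172135343-172148294, holds the hairpins of MIR214 and MIR199A2 on the minus strand, transcribed within the DNM3 opposite-strand RNA DNM3OS, and MIR3120 on the plus strand. Their mature sequences, apart from hsa-miR-3120-5p, are shown with bases 2 to 8, the seed that pairs with target transcripts, in capitals.

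hsa-miR-214-3p, chr1:172138816-172138837, minus strand: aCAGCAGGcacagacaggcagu
hsa-miR-214-5p, chr1:172138857-172138878, minus strand: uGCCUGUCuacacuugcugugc
hsa-miR-199a-3p, chr1:172144554-172144575, minus strand: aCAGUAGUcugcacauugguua
hsa-miR-199a-5p, chr1:172144592-172144614, minus strand: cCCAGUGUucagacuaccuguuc
hsa-miR-3120-3p, chr1:172138858-172138878, plus strand: cACAGCAAguguagacaggca

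No 2 of these 5 share a seed. The MIR214 hairpin lay under 1 peak of library 1 and 2 peaks of library 3, reaching 5 steps in each, and under none of library 2. The MIR199A2 hairpin lay under 1 peak of library 2 of 3 steps and under none of the other libraries. Libraries 1 and 3 thus had peaks over the same hairpin, and over MIR3120, which overlaps it on the other strand, while library 2 had its peak over MIR199A2. A library 1 peak of 7 steps covered the start window of DNM3OS. MIR1245A and MIR1245B, in a region of the collagen gene COL3A1, lay under 1 peak of library 3. MIR6787, in the region of the lactate exporter SLC16A3, lay under 1 peak of library 2.

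The regions themselves were short and thinly filled. Their width had a median of 2294 bp and ran from 1000 to 15728 bp. A region held a median of 5 peaks over the 3 libraries, and the fullest held 67. Library 1 contributed a single peak in 76.9% of the regions, library 2 in 42.8% and library 3 in 46.6%. The tallest peak was at most 4 steps in 58.7%, 86.1% and 82.4% of regions in libraries 1, 2 and 3. The number of peaks per region agreed weakly between libraries, with Spearman's rho of 0.295 to 0.389 over the 4615 regions, which share genes and libraries.

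Peaks of the 3 libraries seldom met at the same base. A position covered by all 3 libraries was found in 390 regions (8.45%, Wilson interval 7.68 to 9.29). The share was 12.1% (11.3 to 13.0) among common regions outside genes and 6.47% (4.93 to 8.45) at gene ends. The interval inside genes lay below that outside genes and overlapped that at gene ends. These intervals cover counting error over regions only, since all regions rest on the same 3 libraries. With at least 50 bp covered together the share inside genes was 3.45%, and with peaks of at least 4 steps it was 2.30%.

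Summed signal and peak height differed little between intragenic and other common regions, while signal per kb was lower inside genes in each library. The median summed signal per region, as a log2 difference from all other common regions, was 0.00, -0.0050 and -0.030 in libraries 1, 2 and 3, with a mean of -0.012 ± 0.016 (SD, n = 3; exact sign-flip permutation test, two-sided, p = 0.5). Per kb of region the difference was -0.12 ± 0.028 (SD, n = 3), negative in 3 of 3 libraries and larger than their spread (exact permutation p = 0.25). With 3 libraries 0.25 is the smallest p this test can give. The median of the highest peak was equal in both classes in each library.

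The location rule selected common regions about as often as it selected the peaks from which they were merged. Inside genes lay 43.2%, 44.5% and 45.1% of the peaks of libraries 1, 2 and 3 (44.2% ± 0.958, SD, n = 3), against 41.2% of the common regions. Among peaks of at least 5 steps the mean share was 39.9%. The common regions thus lay inside genes somewhat less often than all peaks and slightly more often than the tall ones. The gene interior open to the rule was 1221 Mb. Its share of the genome was not computed here, so 41.2% was not set against even placement. At the border of the rule, 24 regions lay within 100 bp beyond the limit, the nearest at 1002.5 bp from a gene end, and 42 regions missed it by up to 100 bp, the nearest at 996.5 bp.

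Within genes the regions were spread from start to end. Of the 4615, 4543 had a single host gene and 72 had 2 or more. In 3618 regions with 1 host of known strand and at least 20 kb of span, the first decile of the gene held 11.2% of regions on 9.39% of the length open to the rule. The next decile held 8.84% on 10.2% of the length and the last held 10.5% on 9.39%. Over the 3774 regions with 1 host of known strand, the median distance to the nearest host start was 67927.5 bp, and 93 regions (2.46%) had their midpoint within 1000 bp of such a start. Of the 4615 regions, 312 (6.76%) also lay in a lncRNA span. The rule placed the midpoint only, and 87 regions (1.89%) overlapped an end of a protein-coding gene. Exons and introns were not told apart here.

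**Figure D1:**
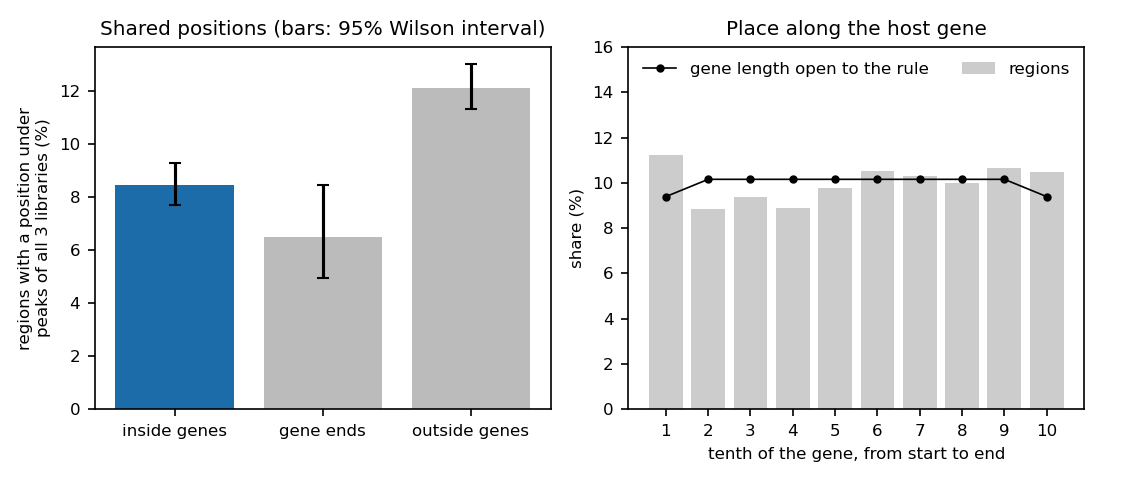
Left, percent of common regions with at least 1 base under peaks of all 3 SALL4 libraries, by location, with 95% Wilson intervals; the bar inside genes is at 8.45%, below the 12.1% outside genes. Right, percent of 3618 regions in each decile of the host gene (bars) beside the percent of gene length open to the rule (line); the first decile holds 11.2% of regions on 9.39% of the length.

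The regions were not spread evenly over chromosomes. Their density was 3.78 per Mb over 1221 Mb of gene interior. It reached 10.9 per Mb on chromosome 14, 8.10 on chromosome 10, 7.16 on chromosome 2, 5.97 on chromosome 12, 5.62 on chromosome 7 and 5.24 on chromosome 1. These 6 chromosomes held 2961 regions (64.2%) on 36.1% of the interior. Chromosome X, by contrast, held 8 regions at 0.163 per Mb.

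The library peaks followed the same order more loosely. The 6 chromosomes held 52.1%, 46.2% and 49.2% of the peaks inside genes of libraries 1, 2 and 3. Library 2 departed from the order on some chromosomes. On chromosome 7 its density was 0.83 times its genome level, against 1.33 and 1.30 times in libraries 1 and 3. On chromosome 8, outside the 6, it was 1.47 times, against 0.83 and 0.74 times. Over 24 chromosomes, Spearman's rho between region density and the peak density of each library was 0.949, 0.872 and 0.954, as a description of lists that share their peaks. Copy number and mappability of the line were not measured in these files, and their part in the densities was not tested.

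**Figure D2:**
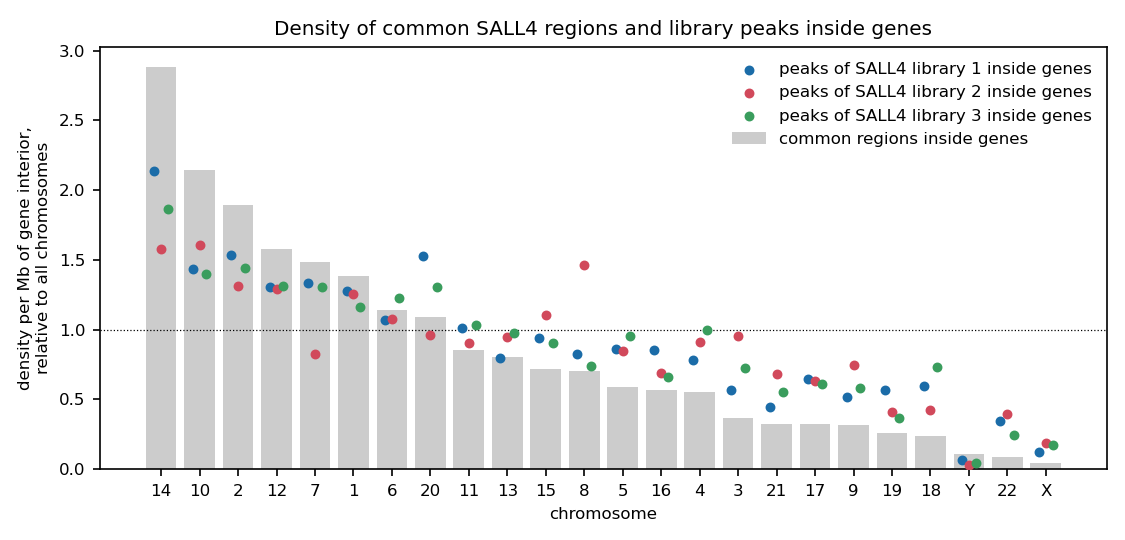
Density per Mb of gene interior of the common regions (bars) and of the peaks of each SALL4 library (points), each relative to its value over all chromosomes, with chromosomes ordered by region density. Chromosome 14 stands highest for the regions at 2.88 times the genome, and chromosome X lies lowest at 0.0431 times.

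Finer windows showed the same pattern. Of 296 windows of 10 Mb with at least 1 Mb of gene interior, the 10 with the most regions held 967 (20.95%) on 3.46% of the interior. They held 10.5%, 8.45% and 9.28% of the inside peaks of the 3 libraries. The fullest window, on chromosome 7 from 80 to 90 Mb, had 186 regions, chiefly in SEMA3A, CACNA2D1, PCLO, SEMA3D and ZNF804B. Peak density there was 6.41 times the genome level in library 1, 2.23 times in library 2 and 4.96 times in library 3. The next windows were on chromosome 10 around PCDH15 (100 regions) and on chromosome 2 around COL5A2 and ZNF804A (98 regions).

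The 4615 regions fell in 2083 of 20037 protein-coding genes, called host genes below. Hosts were long: their median span was 112 kb, against 20.7 kb for genes without a region. Of the hosts 1306 held 1 region, 359 held 2, 418 held 3 or more and 63 held 10 or more. These counts leave out common regions at gene ends, here and below. Such a region was also held by 213 hosts (10.2%), and by 23.8% of hosts with 10 or more regions. Among genes without a region inside, 3.54% held one at an end. In the shortest quintile of genes 0.923% were hosts, and in the longest quintile 31.3% were. Spearman's rho between span and number of regions was 0.439 over the 2083 hosts. Genes without a region were left out of it and 1306 hosts were tied at 1 region. This value therefore cannot tell how much of the pattern goes with span.

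Genes with many regions include adhesion, synaptic and axon guidance genes. PCDH15, a protocadherin of hair cell tip links, held 49 regions in 1825 kb. MAGI2, a synaptic scaffold, held 47, and SEMA3A, a secreted axon guidance cue, held 42. CTNNA3, an alpha catenin, held 37 regions, and the calcium channel subunit CACNA2D1 held 34. PCLO, a giant scaffold of the presynaptic active zone, held 31. The cell surface gene MDGA2, the microtubule-associated NAV3 and the fibrillar collagen COL11A1 held 28 each.

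Relative to length the order changed. COL11A1 had 12.1 regions per 100 kb, SEMA3A 7.82, PCLO 7.58 and CACNA2D1 6.83, against 2.68 in PCDH15 and 2.00 in CTNNA3. The mean over all gene interior was 0.378 per 100 kb. The libraries differed in how far their peaks told these genes apart. Library 1 had 39.9 peaks per 100 kb in PCLO and 6.63 in PCDH15, against 2.64 over all gene interior. Library 3 had 81.7 in PCLO and 28.4 in PCDH15, against 10.9. Library 2 did not separate this pair, with 35.5 in PCLO and 37.6 in PCDH15, against 14.5. High region densities among genes with at least 3 regions were mostly in short genes: GPRIN2 (18.9 per 100 kb), OR4K1 (18.2), AGAP5 (16.8), ANXA1 (16.2), GNAT3 (15.0), ALX1 (13.9), ZSWIM2 (13.8), COL11A1 (12.1) and NOTCH2NLB (11.6). GPRIN2, OR4K1, AGAP5 and NOTCH2NLB belong to families with near-identical copies, so the assignment of their reads is uncertain.

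**Figure D3:**
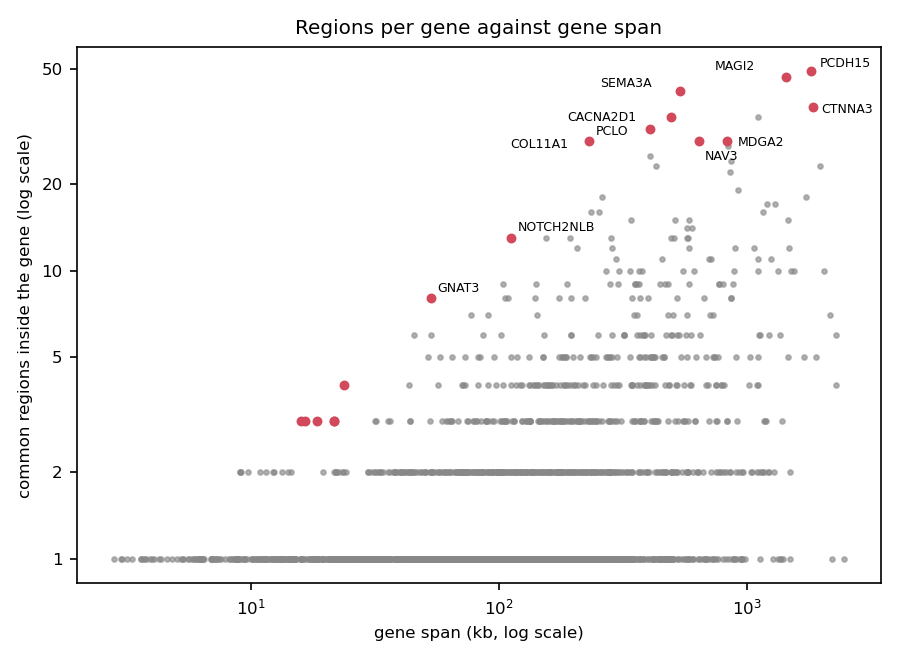
Each point is 1 of 2083 host genes, by span in kb and number of common regions inside it (both log scales); named genes among those with the most regions or the most regions per 100 kb are in red. Genes with 10 or more regions all span at least 112.3 kb, and PCDH15 has the most at 49.

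Genes of fixed lists held regions in unequal measure, along with their lengths. Of 40 synaptic and cell adhesion genes (median span 1031 kb) 29 were hosts, with 298 regions. Of 19 genes known from fragile sites, which are loci prone to breakage under replication stress, 15 were hosts with 104 regions. Of 54 chromatin regulators (median span 84.1 kb) 10 were hosts with 29 regions, led by JMJD1C with 9, KDM4C with 5 and KMT2C with 5. Of 24 hepatocyte genes 2 were hosts, NR5A2 with 2 regions and CPS1 with 1. Among 18 oncofetal genes HMGA2 held 9 regions, and IGF2BP2, LIN28B and SALL4 held 1 each. The lists share members with each other and differ in span.

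A few regions stood at the top in all libraries. The widest overlap of the 3 libraries was in PCLO at chr7:82809327-82825055, where 21, 13 and 33 peaks of libraries 1, 2 and 3 shared 376 bp. The GPM6A region chr4:175851673-175854893 shared 235 bp with 4, 6 and 8 peaks, and the RUNX2 region chr6:45430310-45440621 shared 235 bp with 8, 15 and 18 peaks. GPM6A encodes a neuronal membrane glycoprotein and RUNX2 the transcription factor of bone formation. The regions in PCDH9 (chr13:67144409-67149168) and COL3A1 (chr2:188971376-188983034) shared 219 and 217 bp.

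By mean rank of summed signal over the libraries the DNM3 region with the microRNAs came first, with 19, 23 and 22 peaks. The IFIH1 region chr2:162286350-162299684, in the gene of the cytosolic RNA sensor MDA5, followed with 11, 24 and 24 peaks. The NDST4 region chr4:115107555-115117010 held 12, 15 and 17 peaks and runs past the edge of the gene at 115113620. Its library 1 peak of 17 steps lay over the NDST4 start window at that edge. The COL3A1 region also crosses the edge of its gene, at 188974373. All of these regions are wider than the median of 2294 bp, at 3220 to 15728 bp, so rank and width go together here.

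The knockdown gave a second readout. The location rule uses no RNA values, but these regions were chosen for study with earlier results of these data known. SALL4 RNA was 21.6 and 18.7 CPM in the knockdown libraries against 74.5 and 58.7 CPM in the scramble libraries. It fell by 1.72 on the log2 scale (SE 0.19; edgeR adjusted p = 5.42e-06). In bulk samples, fewer cells of a type and less RNA per cell cannot be told apart. SALL4 itself held a common region inside the gene at chr20:51796919-51800978, with 1, 3 and 4 peaks of 3, 3 and 5 steps. It also held 1 at a gene end.

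More hosts were called higher than lower after knockdown, while among genes without a region the order was the opposite. Of 25806 genes tested, 2.31% were called higher and 3.25% lower after knockdown, and of 15157 protein-coding genes 2.72% were called higher and 5.15% lower (edgeR, adjusted p under 0.05). Of 1831 hosts tested, 85 (4.64%) were higher and 72 (3.93%) lower. Of protein-coding genes without a region 2.45% were higher and 5.31% lower. The median log2 fold change was 0.10 in hosts and -0.04 in genes without a region, and 61.0% of hosts had a positive value. Without scramble replicate 2 the order of calls turned, with 35 hosts (1.88%) higher and 66 (3.54%) lower, against 1.43% and 2.90% of protein-coding genes. Without knockdown replicate 2, hosts called higher and lower were close in number. The median was then 0.084 in hosts and -0.080 in protein-coding genes. In hosts the median stayed positive in every set of libraries, at 0.068 to 0.16.

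The shift went along with the number of regions per gene. The median log2 fold change was 0.06 in hosts with 1 region, 0.14 with 2 and 0.19 with 3 or more. In the 62 tested genes with 10 or more regions it was 0.33, and 88.7% of these genes had a positive value. Calls followed: 40 higher and 53 lower of 1120 with 1 region, 17 and 9 of 322 with 2, and 28 and 10 of 389 with 3 or more. Of the 62 genes 9 were higher (14.5%) and 0 lower, with 21 at an unadjusted p under 0.05 in either direction. Over protein-coding genes, 3571 of 15157 were at such an unadjusted p. DESeq2 called 13 of the 62 higher and 0 lower, against 4.08% of protein-coding genes higher and 7.58% lower in the same test. With 1 RNA library left out, a group held 1 library and fewer of the 62 were called higher, the fewest without scramble replicate 2. In hosts with 3 or more regions the median was then 0.17 and 0.20 without knockdown replicates 1 and 2. It was 0.25 and 0.17 without scramble replicates 1 and 2. Over protein-coding genes the medians in the same order were 0.0020, -0.080, -0.010 and -0.0019. Without scramble replicate 2, calls in hosts with 3 or more regions no longer leaned to higher. The median over the 62 genes ran from 0.28 to 0.40 with each RNA library left out.

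Length moved with these values. In the longest quintile of genes the median log2 fold change was 0.14 in hosts and 0.05 in genes without a region, with 5.11% and 3.57% called higher. In the next longest quintile the medians were 0.03 and -0.01. Among genes of at least 300 kb, 11 of 294 tested without a region (3.74%), 15 of 323 with 1 to 9 regions (4.64%) and 6 of 51 with 10 or more (11.8%) were higher. Their medians were 0.13, 0.25 and 0.33, and their median spans 415, 475 and 836 kb. Length thus moved with the number of regions even among long genes, and its part in the difference was not tested. Chromosome did not separate the hosts, whose median was 0.10 both on the 6 chromosomes of highest density and on the others.

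**Figure D4:**
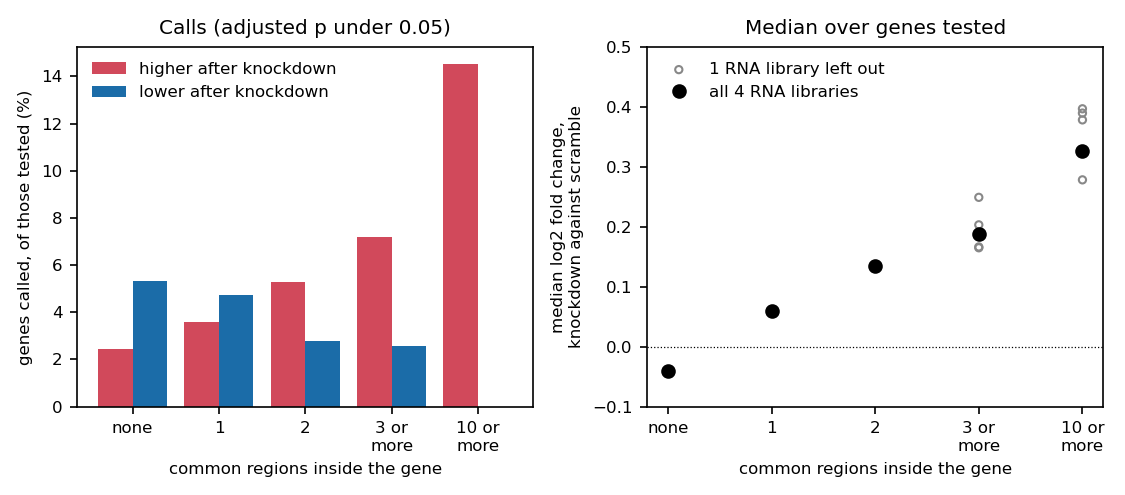
Left, percent of tested protein-coding genes called higher or lower after SALL4 knockdown, by number of common regions inside the gene; genes with 10 or more are also part of those with 3 or more. Right, the median log2 fold change of the same genes (black) and, for the last groups, the medians with each RNA library left out (grey circles), which run from 0.28 to 0.40 with 10 or more regions.

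Place in the gene was compared in hosts with a known start, a split chosen after the values were seen. With a region midpoint within 5 kb of a start of the gene, 27 of 354 tested hosts were higher (7.63%) and 20 lower (5.65%). With the nearest region at 5 to 50 kb, 29 (4.16%) and 27 (3.87%) of 697 were called, and beyond 50 kb 18 (3.65%) and 14 (2.84%) of 493. The difference between these groups was not tested and was not recomputed with a library left out. The medians were 0.12, 0.08 and 0.13. Median span was 72.6, 76.6 and 216 kb in these groups.

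KDM3A, whose alternative start lies in its region, was the chromatin regulator of the fixed list that was a host and passed the test. KDM3A RNA was 93.1 and 91.7 CPM after knockdown against 47.1 and 64.0 CPM in scramble, and the groups did not overlap. It rose by 0.73 on the log2 scale (SE 0.19; edgeR adjusted p = 0.0183). In 5 of 10 alternatives KDM3A did not pass, with an adjusted p of up to 0.313, reached without scramble replicate 1. The region chr2:86439151-86443747 held 5, 4 and 2 peaks of up to 7, 3 and 5 steps, with its midpoint 0.012 kb from a start of the gene. The other 9 chromatin regulators with a region did not pass the test, among them JMJD1C at a log2 fold change of 0.40 (edgeR adjusted p = 0.233). Of all 54 genes of the list, host or not, 4 were higher and 5 lower, against 2.72% higher and 5.15% lower over protein-coding genes.

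The largest gains among hosts with a mean of at least 1 CPM were in genes of varied function, most with a single region inside the gene. TNFAIP3, an inhibitor of NF-kB signalling, was 11.8 and 23.1 CPM after knockdown and 3.55 and 5.85 CPM in scramble. Both knockdown libraries lay above both scramble libraries, at a rise of 1.90 on the log2 scale (SE 0.36; edgeR adjusted p = 0.0202). Its region chr6:137871313-137874598 held 1, 1 and 2 peaks of 4 steps, 5.70 kb from a start. DNAI7, an axonemal dynein component, was 37.7 and 32.7 against 15.2 and 10.4 CPM (log2 fold change 1.46, SE 0.21; edgeR adjusted p = 1.29e-04). Its region chr12:25187616-25189629 held 2 peaks of each library, with a library 1 peak of 12 steps. DNAI7 also held 1 common region at a gene end. EGR2, an immediate early zinc finger factor, was 2.61 and 3.19 against 1.25 and 0.943 CPM (1.40, SE 0.29; edgeR adjusted p = 0.00397), and lost its call without scramble replicate 2 (adjusted p = 0.0519). Its region covers most of the short gene.

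The other large gains also had separate groups, which the choice of these genes required. DUSP22, a dual-specificity phosphatase, was 58.4 and 64.8 against 26.6 and 26.7 CPM (log2 fold change 1.21, SE 0.18; edgeR adjusted p = 2.15e-04) and held 3 regions. TTC6 rose by 1.31 with 3 regions, the latrophilin receptor gene ADGRL3 by 1.26 with 1 and the erythroid ankyrin ANK1 by 1.23 with 1, each as a log2 fold change (edgeR adjusted p from 6.07e-04 in ADGRL3 to 0.00994 in ANK1). In ADGRL3 the region lay 848 kb from the nearest start. ANK1 was no longer called once knockdown replicate 2 or scramble replicate 1 was left out.

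The largest losses among hosts with a mean of at least 1 CPM also came with 1 or 2 regions inside the gene. ERO1A and SALL4 also held 1 each at a gene end. GNB4, a G protein beta subunit, was 17.9 and 14.4 CPM after knockdown and 76.7 and 57.0 CPM in scramble (log2 fold change -2.05, SE 0.20; edgeR adjusted p = 1.19e-06). Its region chr3:179449923-179452241 lay 0.388 kb from an alternative start, with 1 peak of each library of 3, 3 and 4 steps and none over the start window. CEND1, a neuronal cell cycle exit gene of 2.98 kb, was 3.24 and 3.12 against 13.5 and 11.2 CPM (-1.96, SE 0.23; edgeR adjusted p = 7.94e-06). The oxidase of endoplasmic reticulum protein folding ERO1A was 52.6 and 44.5 against 141.1 and 217.6 CPM (-1.89, SE 0.21; edgeR adjusted p = 1.30e-05) with 2 regions. In these 3 genes the knockdown libraries lay far below both scramble libraries.

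PAQR5, a membrane progestin receptor, fell by 1.71 on the log2 scale (edgeR adjusted p = 1.33e-05). LMBR1, host of a limb enhancer of SHH, was 37.3 and 27.5 against 115.6 and 87.6 CPM, or -1.65 on the log2 scale (SE 0.20; edgeR adjusted p = 2.03e-05). Its region, chr7:156700689-156701695, is narrow at 1006 bp but held tall single peaks of 16, 8 and 6 steps that shared 30 bp. KTN1, a kinesin-binding membrane protein, was 175.5 and 150.8 against 544.1 and 418.5 CPM (-1.56; edgeR adjusted p = 1.79e-05). SLC16A3 was 1.11 and 0.785 against 1.67 and 3.52 CPM (-1.45; edgeR adjusted p = 0.0185), with the wider spread in scramble. Its call was lost without knockdown replicate 2 (-1.23) and also without scramble replicate 2 (-0.80). With all 4 libraries kept, it was lost with the combined count matrix.

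**Figure D5:**
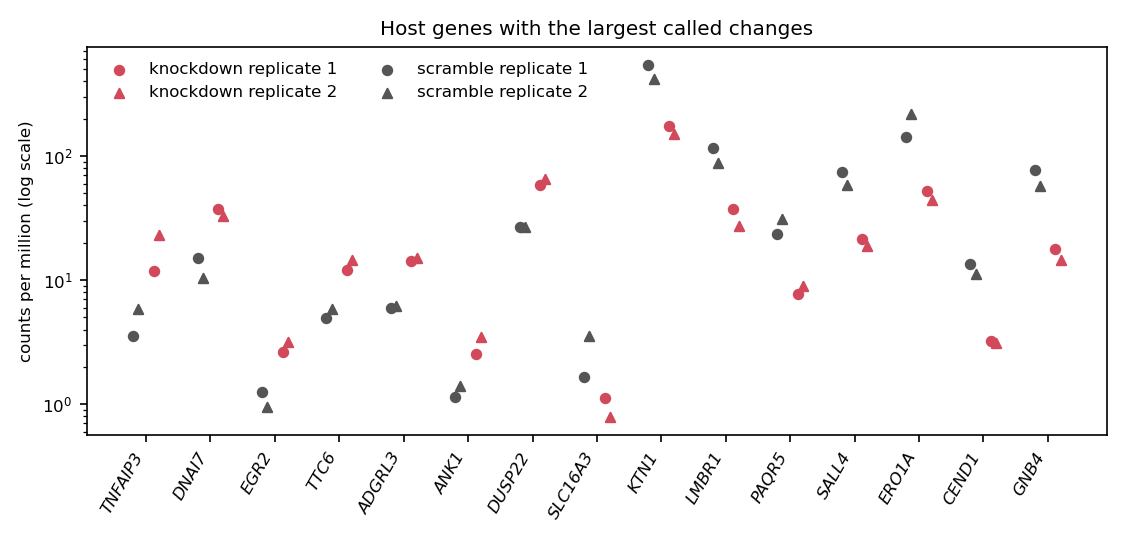
CPM (log scale) in each of the 4 RNA libraries of 15 host genes with a mean of at least 1 CPM and the largest called changes, ordered by log2 fold change from TNFAIP3 at 1.90 to GNB4 at -2.05; red marks knockdown, grey scramble, circles replicate 1 and triangles replicate 2. The groups do not overlap in any of them, which the choice of these genes required.

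The 9 called genes with 10 or more regions were all higher; 5 of them (CNTNAP4, CUBN, DPYD, LRRIQ1 and OLFM3) were singled out after their values were seen. PARD3B, a polarity gene with 12 regions, was 37.2 and 42.3 CPM against 17.3 and 19.6 CPM (log2 fold change 1.11, SE 0.19; edgeR adjusted p = 7.40e-04). DPYD, encoding the enzyme of pyrimidine breakdown, had 27 regions and was 11.2 and 12.5 against 5.56 and 7.09 CPM (0.91; edgeR adjusted p = 0.0143). CUBN, an endocytic receptor with 10 regions, was 42.9 and 54.2 against 28.3 and 26.9 CPM (0.82; edgeR adjusted p = 0.00999). CNTNAP4, a contactin-associated protein gene with 13 regions, was 157.2 and 151.1 against 90.1 and 93.5 CPM (0.75; edgeR adjusted p = 0.0115). PARD3B kept its call in every alternative, whereas the other 8 genes lost theirs in at least 1.

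PCDH15, the gene with the most regions, was 19.3 and 18.5 against 10.6 and 12.8 CPM (0.69, SE 0.20; edgeR adjusted p = 0.0440). CACNA2D1 was 36.2 and 26.8 against 22.1 and 16.1 CPM (0.72; edgeR adjusted p = 0.0441), and GPM6A was 270.9 and 199.8 against 168.0 and 112.7 CPM (0.75; edgeR adjusted p = 0.0451). These calls were near the threshold. PCDH15 lost its call with any RNA library left out, and CACNA2D1 and GPM6A when knockdown replicate 1 or scramble replicate 2 was left out. With all 4 libraries kept, each of these genes also lost its call at a mean of at least 5 CPM and with the combined count matrix. LRRIQ1 with 16 regions had a log2 fold change of 1.06 (edgeR adjusted p = 0.0387), and OLFM3 with 13 regions 0.64 (edgeR adjusted p = 0.0389).

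Several other genes rich in regions did not pass the test. SEMA3A was 125.8 and 105.4 against 139.1 and 90.5 CPM, a log2 fold change of 0.01. PCLO was 64.8 and 57.0 against 98.7 and 68.2 CPM (-0.45, edgeR adjusted p = 0.1997). MAGI2 had a log2 fold change of 0.31, COL11A1 of 0.14 and NAV3 of 0.02. ANXA1, a phospholipid-binding gene with 3 regions, was 1109 and 992.9 against 2075 and 1391 CPM (-0.72, edgeR adjusted p = 0.0469), a call lost without knockdown replicate 2 (-0.65, edgeR adjusted p = 0.146) and also without scramble replicate 1 (-0.41, edgeR adjusted p = 0.562). ZSWIM2 with 3 regions had a log2 fold change of 0.81 (edgeR adjusted p = 0.0441), and lost its call without knockdown replicate 1 or scramble replicate 2. With all 4 libraries kept, ANXA1 and ZSWIM2 also lost their calls at a mean of at least 5 CPM and with the combined count matrix.

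Among the hosts of each gene list at most 2 passed the test, beside 2.72% of protein-coding genes higher and 5.15% lower, and counts this small do not set a list apart from that background. Of 28 tested synaptic and cell adhesion hosts 1 was higher and 0 lower, with a median log2 fold change of 0.33, against 0.32 for all tested genes of that list and -0.03 for all protein-coding genes. The gene is CDH12, a cadherin with 2 regions at 0.80 (edgeR adjusted p = 0.01997), named after its value was seen. Its call was lost at a mean of at least 5 CPM, and without knockdown replicate 2 or scramble replicate 1. Of 15 fragile-site hosts 2 were higher and 0 lower, with a median of 0.36, against 0.28 for all 19 genes of that list. The called hosts are PARD3B and LSAMP (0.70, edgeR adjusted p = 0.0485), the latter named after its value was seen. LSAMP lost its call in 5 alternatives. Of 6 hypoxia hosts ERO1A was lower and none higher, with a median of -0.66. Of all 25 genes of that list 8 were lower, most of them not hosts, and none higher, with a median of -0.42. The lower calls of this list are thus not particular to its hosts. PDK1 was 5.89 and 7.59 against 9.003 and 33.4 CPM, so its scramble libraries were far apart (edgeR adjusted p = 0.521). Of 16 hosts of the cytoskeleton and guanine nucleotide exchange list, 6 of the Wnt list, 4 of the PI3K and mTOR list, 3 other-cell markers and 2 hepatocyte genes none was called. The kinase gene STK3, the Hippo host, was at -0.59 (edgeR adjusted p = 0.0561).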

How the data were processed

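The authors deposited, per the file headers, 1 peak list per SALL4 library with the total and highest signal of each peak (coordinates of hg38 per the submitters' processing notes), a list of common regions, and raw counts per gene symbol for 4 RNA libraries. The notes name SEACR 1.1, HOMER 4.10, STAR and featureCounts without settings; how strand and coverage scaling were set is not given in the sources used here. Peak signal comes in whole steps of 2.88, 2.64 and 3.30 in libraries 1, 2 and 3, with 74708, 398354 and 296159 peaks; heights are given in steps. Coordinates of the common list were read as the file gives them. Regions were placed against RefSeq gene spans of GRCh38.p14 (same build); strand and starts came from the RefSeq start windows.

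Counts as deposited (158934493 to 225624957 per library) went into edgeR 4.0.16 (R 4.3.3) after filterByExpr and TMM scaling, with group alone in a robust quasi-likelihood test and Benjamini-Hochberg adjustment over 25806 genes at 0.05; CPM in the text use TMM, those of cell type markers the library totals. The SE is the log2 fold change divided by the square root of F. Of 56301 symbols, 35226 matched RefSeq names, among them 19036 of 20037 protein-coding genes; 26 symbols had been turned into dates. Tests were checked on simulated counts. Wilson intervals are at 95%. Reads of overlapping genes cannot be told apart. The regions and gene lists were chosen with earlier results of these data known. Genes were named by rule: SALL4 and KDM3A, the 10 with the most regions, the 10 densest with at least 3 regions, the 8 largest called changes in each direction with groups apart and a mean of at least 1 CPM, up to 4 hosts of each of 11 lists, and the hosts of the 6 regions of widest overlap and the 6 of highest mean rank; some of these genes are not reported here. Alternatives were other scaling, filters, tool, count table, a replicate block, each library left out, other margins and peak thresholds.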

Additional observations from a re-analysis of the deposited data

How the results depend on the processing

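The number of regions inside genes ran from 4222 with a margin of 3000 bp to 5097 with none, and was 4358 with the whole region inside. The share of library peaks inside genes was 39.9% for peaks of at least 5 steps, 41.0% with a margin of 3000 bp and 43.8% to 44.8% without 1 library. Regions with a shared position made up 3.45% with at least 50 bp, 2.30% with peaks of at least 4 steps and 28.4% to 32.8% for pairs of libraries, where fewer lists have to meet. The signal difference stayed between -0.018 and -0.0025 without 1 library. Hosts called higher and lower numbered 128 and 90 without a filter, 51 and 41 at a mean of at least 5 CPM (fewer genes tested), 124 and 98 with DESeq2, 70 and 56 with the combined matrix and 28 and 10 with at least 3 regions; without 1 library they numbered 35 to 61 and 45 to 66. Over all genes the counts were 259 and 395 at 5 CPM, and 307 to 420 and 502 to 783 without 1 library. The hosts' median log2 fold change was 0.068 to 0.16 without 1 library and 0.19 with at least 3 regions; where values moved and no reason is given, the cause was not tested.

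With the replicate number as a block, 306 hosts were higher and 207 lower, 2309 and 2612 over all genes, and 157 of the 157 hosts called with group alone were called in both fits; of the 62 tested genes with 10 or more regions 23 were then higher and 2 lower. The labels do not say that a number marks a shared culture; with 2 pairs, the deviations of same-numbered libraries correlated at 0.527. Of 73 genes followed, 29 were called and 13 of these kept the call in every alternative. Signs turned only in genes that were not called: with the combined matrix SEMA3A was at -0.0051, NR5A2 at 0.11 and CPS1 at -0.085. Without 1 RNA library log2 fold changes ran from -0.25 to 0.35 in SEMA3A, -0.53 to 1.25 in CTNNA3, -0.28 to 0.42 in NAV3, -0.18 to 0.11 in NR5A2, -0.11 to 0.25 in CPS1, -0.16 to 0.27 in HMGA2, -0.042 to 0.38 in EPAS1, -0.12 to 0.45 in PCDH9, -0.011 to 0.30 in VAV3, -0.058 to 0.66 in DNM3 and -0.0503 to 0.39 in NDST4. The A+T content of whole regions and both of its alternatives were not run, since no genome sequence was used here. The median peak stood 4, 3 and 3 steps high in libraries 1, 2 and 3, and a shared position below a library's peak threshold was not detectable.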

Other observations

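Of the 11201 common regions, 188 lay on sequences without placed genes and could not be tested by the location rule. They held a position covered by all 3 libraries in 18.6% of cases (95% Wilson interval 13.7 to 24.8), with a median width of 2378.5 bp and a median of 6 peaks.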
